A study of Homo sapiens with 16 samples.

Results

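Transcripts of 10 lysine acetyltransferase genes were followed in the human myeloma line NCI-H929 after the protein p300 was degraded or its gene EP300 knocked out. The genes were EP300, CREBBP, KAT2A, KAT2B, KAT5, KAT6A, KAT6B, KAT7, KAT8 and HAT1, found by matching the Ensembl identifiers of the count tables to gene symbols. All 10 were found among the 57500 genes of the tables, and all 10 passed the filter on low counts in every comparison. They were chosen by name, with earlier results of these data known.

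Bulk RNA sequencing gave 16 libraries, 4 in each of 4 groups. One experiment compared 6 h of the p300 degrader numbered 27, at 3 nM, with DMSO, its vehicle. The other compared p300 KO cells with cells labelled NTC. The labels give neither the method nor the exon of the knockout, nor whether it is 1 clone or a pool. Nor do they say whether replicates were separate cultures, and the spread behind every p-value is that among these libraries, which may be technical. All libraries are labelled batch 1.

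In the coordinates of the count tables (GRCh38), all 10 are protein-coding genes. The first pair of paralogues is EP300 (ENSG00000100393) at chr22:41091786-41180079 on the plus strand and CREBBP (ENSG00000005339) at chr16:3725054-3880726 on the minus strand. The second is KAT2A (ENSG00000108773) at chr17:42113108-42121358 on the minus strand and KAT2B (ENSG00000114166) at chr3:20040023-20154404 on the plus strand. Of the MYST genes, the counts cover KAT5 (ENSG00000172977) at chr11:65711996-65719604 on the plus strand, KAT6A (ENSG00000083168) at chr8:41929479-42051990 on the minus strand and KAT6B (ENSG00000156650) at chr10:74825582-75032622 on the plus strand. They also cover KAT7 (ENSG00000136504) at chr17:49788555-49835030 on the plus strand and KAT8 (ENSG00000103510) at chr16:31115754-31131393 on the plus strand. The last gene is HAT1 (ENSG00000128708) at chr2:171922448-171983682 on the plus strand.

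Lysine acetyltransferases move an acetyl group from acetyl-CoA onto lysines of histones and other proteins. The protein p300, encoded by EP300, and its close paralogue CBP, encoded by CREBBP, are large coactivators that transcription factors bring to enhancers and promoters, and they are the main writers of acetylation at active enhancers. KAT2A (GCN5) and KAT2B (PCAF) are a pair of paralogues that take each other's place in the SAGA and ATAC complexes. KAT5 (TIP60), KAT6A (MOZ), KAT6B (MORF), KAT7 (HBO1) and KAT8 (MOF) form the MYST family, whose members work inside multi-subunit complexes. HAT1 acetylates newly made histones before they enter chromatin. A degrader brings its target to the cell's protein breakdown machinery. It acts on protein, and protein was not measured here.

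EP300 and CREBBP are shown by their promoters because they are the paralogues whose transcripts moved in opposite directions in the KO. Each sequence runs 5′ to 3′ on the gene's own strand, from 250 bases before the RefSeq transcription start to 50 bases from it, in build GRCh38.p14. Capitals mark matches to 4 motifs searched on both strands: TGACG (the core of a cAMP response element), TGACGTCA (the full element), CACGTG (an E-box) and GGGCGG (a GC box). A full element would also contain matches to TGACG. The EP300 window is chr22:41092342-41092641 on the plus strand, and the CREBBP window is chr16:3880664-3880963 on the minus strand.
EP300: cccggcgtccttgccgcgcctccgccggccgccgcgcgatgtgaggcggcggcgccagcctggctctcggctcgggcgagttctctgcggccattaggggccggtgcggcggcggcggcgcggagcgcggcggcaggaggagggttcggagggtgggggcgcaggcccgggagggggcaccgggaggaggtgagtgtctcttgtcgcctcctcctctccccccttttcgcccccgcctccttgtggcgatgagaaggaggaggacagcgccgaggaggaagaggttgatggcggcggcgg
CREBBP: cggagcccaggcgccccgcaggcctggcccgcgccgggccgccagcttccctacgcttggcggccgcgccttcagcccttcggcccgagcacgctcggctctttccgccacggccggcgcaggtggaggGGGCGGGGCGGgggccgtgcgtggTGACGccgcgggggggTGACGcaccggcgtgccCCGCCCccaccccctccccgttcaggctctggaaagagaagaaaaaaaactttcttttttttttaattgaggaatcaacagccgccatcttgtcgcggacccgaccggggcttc
The EP300 window held none of the 4 motifs. The CREBBP window held 2 matches to TGACG and 3 to GGGCGG or its reverse complement, a pair of which overlap, and no full element or E-box. Over all 35116 RefSeq promoter windows of this length, 24.6% held TGACG, 1.85% TGACGTCA, 7.26% CACGTG and 45.0% GGGCGG. The share of G and C was 75.3% in the EP300 window and 70.3% in the CREBBP window, against a median of 58.7% over all windows. These matches describe the letters only.

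Total counts averaged 16.9 ± 2.96 M with the degrader, 18.3 ± 0.893 M in DMSO, 20.1 ± 2.42 M in the KO and 22.1 ± 1.02 M in NTC (M, mega-counts; SD, n = 4), and the 10 genes had between 60 and 3100 counts each per library. A pair of libraries stood apart before any result: mitochondrially encoded genes took 64.9% of the counts in degrader 2 and 47.7% in p300 KO 1. In the remaining libraries that share was 5.99 to 6.96% with the degrader, 13.4 to 23.5% in DMSO, 10.2 to 11.4% in the KO and 8.91 to 10.3% in NTC. The log2 fold changes of the 10 genes in each experiment are therefore given with all libraries and without the mitochondria-rich one. All 9 plasma cell markers were expressed, with summed levels of 3456 to 16698 CPM with the degrader, 10887 to 13708 CPM in DMSO, 7269 to 13317 CPM in the KO and 12849 to 13204 CPM in NTC. The 3 fibroblast markers summed to at most 1.46 CPM and the 3 erythroid markers to at most 1.17 CPM in any library. The 5 T cell markers summed to 5.88 to 28.8 CPM with the degrader, 38.1 to 45.1 CPM in DMSO, 21.5 to 39.3 CPM in the KO and 47.4 to 53.4 CPM in NTC. CD3D, CD3G and CD8A were at most 0.330 CPM throughout. CD3E stood at 4.77 to 26.1 CPM with the degrader, 36.3 to 43.9 in DMSO, 16.1 to 28.7 in the KO and 25.6 to 29.3 in NTC. TRAC stood at 4.89 to 10.9 CPM in the KO and 20.5 to 23.7 CPM in NTC, and at most 2.70 CPM in the other groups. The sums of 4 NK cell markers were 25.8 to 70.9 CPM with the degrader, 52.8 to 64.1 CPM in DMSO, 50.5 to 76.3 CPM in the KO and 83.0 to 88.2 CPM in NTC. NCAM1 was the highest of them in each group. GNLY stood at 13.6 to 17.6 CPM in the KO and 21.2 to 23.9 CPM in NTC, and NKG7 at 6.63 to 7.66 and 11.9 to 13.9 CPM. Neither exceeded 2.24 CPM in DMSO or with the degrader. Earlier B cell, monocyte and epithelial markers summed to at most 13.9, 11.6 and 17.9 CPM in any library. The part of such genes in the results below was not tested. CPM is the share of a library's counts taken by a gene in parts per mega-count. The marker values above are CPM of total counts, mitochondrial counts included, without TMM. They therefore carry the mitochondrial share of each library. The levels given below were scaled by TMM over the 16 libraries. In bulk RNA, fewer cells of a kind and less RNA per cell cannot be told apart.

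In the mitochondria-rich libraries the acetyltransferases departed from their group mates in gene-specific directions. KAT6B was 4.88-fold higher in degrader 2 than in the mean of the other 3 degrader libraries, and 1.91-fold higher in p300 KO 1 than in the other 3 KO libraries. EP300 was 2.77-fold and 1.23-fold higher, and KAT6A 2.17-fold and 1.43-fold higher, in the same order of libraries. KAT2A stood at 0.397-fold and 0.676-fold, HAT1 at 0.585-fold and 0.605-fold, and KAT5 at 0.692-fold and 0.623-fold of the group mates. Of the 10 genes, 9 departed with the same sign in both libraries, KAT8 by only 1.04-fold and 1.10-fold. CREBBP was the exception, at 1.78-fold in degrader 2 and 0.921-fold in p300 KO 1. Over 9134 genes the median departure was −0.25 in log2 CPM in both libraries. The share of all genes with the same sign in both is not given here, so that count is not a result about these genes. These 2 libraries share a high mitochondrial share, so the departures are a description and carry no test.

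**Figure D1:**
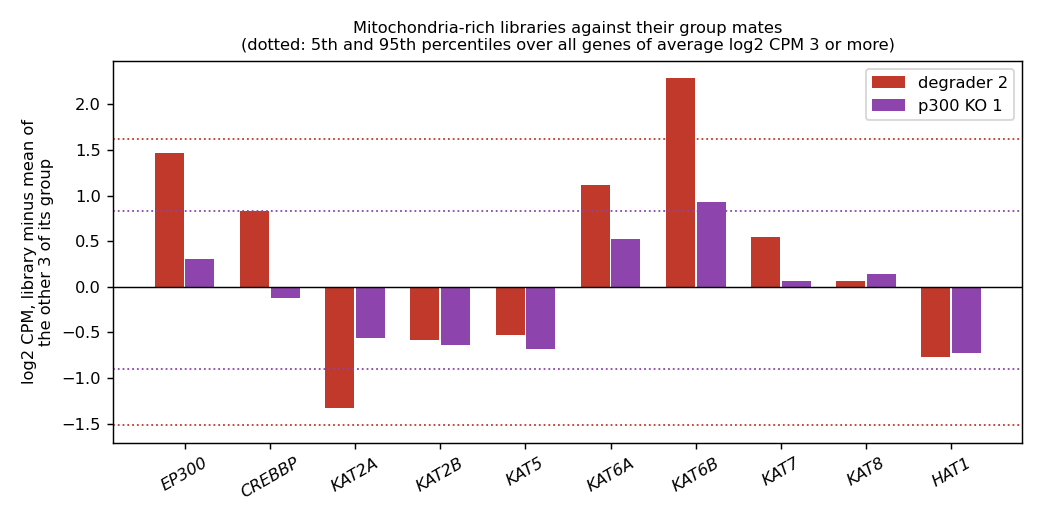
Departure of the mitochondria-rich libraries from the mean of the other 3 libraries of their group, in log2 CPM, for the 10 genes. Dotted lines are the 5th and 95th percentiles of the same departure over all genes with an average log2 CPM of 3 or more; KAT6B, at 2.29 in degrader 2 and 0.93 in p300 KO 1, lies above the upper line of each library.

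In p300 KO cells EP300 transcripts fell by 57.9% and those of its paralogue CREBBP rose by 25.2%, relative to NTC. EP300, the targeted gene, stood at 41.2, 34.9, 31.2 and 34.1 CPM in KO libraries 1 to 4, against 92.7, 85.4, 83.9 and 87.7 CPM in NTC libraries 1 to 4. Every KO library lay below every NTC library, and the highest KO value belonged to the mitochondria-rich KO 1. It had a log2 fold change of −1.25 ± 0.11 (SE; quasi-likelihood test of edgeR, Benjamini-Hochberg adjusted p = 2.20e-04). Without KO 1 the level was 33.4 ± 1.94 CPM in the KO (SD, n = 3) and 87.4 ± 3.82 CPM in NTC (SD, n = 4), a log2 fold change of −1.37 ± 0.06 (edgeR, adjusted p = 4.21e-24). Gene-level counts do not show which exons the remaining reads came from.

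CREBBP stood at 53.7, 60.5, 55.6 and 59.0 CPM in the KO and at 48.1, 47.5, 44.9 and 49.1 CPM in NTC. All 4 KO libraries lay above all 4 NTC libraries, the mitochondria-rich one included. Its log2 fold change was 0.32 ± 0.06 (quasi-likelihood test of edgeR, Benjamini-Hochberg adjusted p = 0.00850) and 0.31 ± 0.05 without KO 1 (adjusted p = 9.39e-06). It kept its call in all 7 further fits that left out 1 more library after KO 1, with adjusted p at most 3.64e-04. With all 8 libraries the call was lost under total count scaling (0.15, adjusted p = 0.701), which also moved the median of all genes by −0.16, and with no filter on low counts (adjusted p = 0.117).

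With the degrader and all libraries, neither EP300 nor CREBBP was called, and without degrader 2 CREBBP rose while EP300 lay at the threshold. EP300 stood at 55.1, 151, 53.1 and 55.3 CPM in degrader libraries 1 to 4, against 39.8, 50.5, 48.0 and 45.9 CPM in DMSO libraries 1 to 4. Every degrader library lay above every DMSO library, and degrader 2 was far above its mates. With all libraries the log2 fold change was 0.79 ± 0.35 (quasi-likelihood test of edgeR, Benjamini-Hochberg adjusted p = 0.249). Without degrader 2 it was 0.24 ± 0.09 (adjusted p = 0.0531), from 54.5 ± 1.19 CPM with the degrader (SD, n = 3) and 46.0 ± 4.56 CPM in DMSO (SD, n = 4). Of 8 other settings tried without degrader 2, 6 called it, with adjusted p between 0.0143 under total count scaling and 0.0432 with the replicate block, DESeq2 included (0.0230). The 2 that did not were limma-voom (adjusted p = 0.0525) and the mitochondrial share as a covariate, given below. Of 7 fits that left out 1 more library, 2 called it.

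CREBBP stood at 39.3, 71.2, 39.5 and 40.8 CPM with the degrader and at 26.6, 27.6, 32.1 and 30.8 CPM in DMSO. The groups did not overlap, with or without degrader 2. With all libraries the log2 fold change of 0.71 ± 0.22 was not called by edgeR (Benjamini-Hochberg adjusted p = 0.101) but was called by DESeq2 (0.70, adjusted p = 0.0115). Without degrader 2 it was 0.44 ± 0.09 (edgeR, adjusted p = 0.00187), a rise of 35.6%, and it kept its call in all 7 further leave-outs. The 3 remaining degrader libraries also had a lower mitochondrial share than any DMSO library. With the log2 of that share added to the fit without degrader 2, CREBBP had 0.66 ± 0.25 (edgeR, adjusted p = 0.165) and EP300 0.04 ± 0.24 (adjusted p = 0.958). The share does not overlap between the groups there, so it and the treatment cannot be told apart. With all 8 libraries and the same term, CREBBP had 0.83 (edgeR, adjusted p = 2.72e-07) and EP300 0.88 (adjusted p = 1.22e-06), both called. The share was 64.9% in degrader 2 and 5.99 to 6.96% in its mates, so the term leans on that library there. EP300 was 2.77-fold and CREBBP 1.78-fold its mates in degrader 2, so these 2 calls are no independent evidence of a rise.

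**Figure D2:**
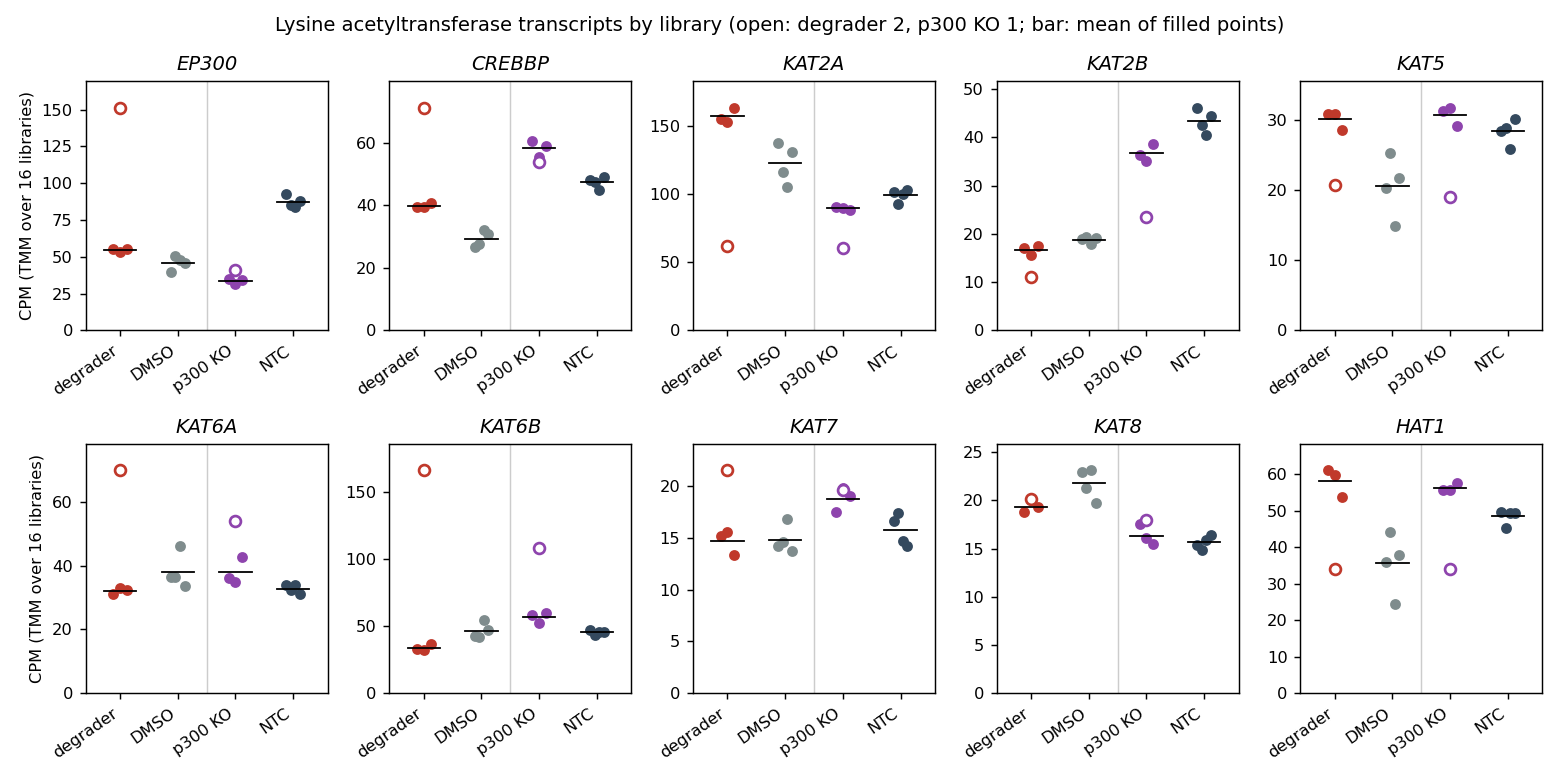
Level of each of the 10 transcripts in every library, in CPM scaled by TMM over 16 libraries, by group. Filled points are the libraries that stay in the reduced fits, open points are degrader 2 and p300 KO 1, and bars are means of the filled points; EP300 is lowest in the KO, at 33.4 CPM, and highest in NTC, at 87.4 CPM.

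The EP300 difference between the experiments passed its own test. The KO effect minus the degrader effect was −2.07 ± 0.37 on the log2 scale (quasi-likelihood test of edgeR over all 16 libraries, Benjamini-Hochberg adjusted p = 0.00361). Without degrader 2 and KO 1 it was −1.64 ± 0.11 (adjusted p = 5.06e-11). For CREBBP the same difference was −0.42 ± 0.22 (adjusted p = 0.299), and −0.15 ± 0.10 (adjusted p = 0.270) without both libraries, so a difference in the CREBBP response between degrader and KO was not called. With the log2 mitochondrial share in the fit of all 16 libraries, that term leans on degrader 2 and KO 1. The CREBBP difference was called there, at −0.56 (edgeR, adjusted p = 0.00270), beside 27.4% of all genes. With that term in the fit without both libraries the CREBBP difference was not called (−0.25, adjusted p = 0.602). EP300 stayed called there, at −1.29 ± 0.23 (adjusted p = 5.54e-04). EP300 was the 1 gene of the 10 called in the difference with all libraries, where 6.58% of the 18068 genes tested were called, 2.82% higher and 3.76% lower.

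Per kilobase of exon, the balance between the paralogues turned over in the KO. The level of EP300 divided by that of CREBBP was 0.950, 0.715, 0.697 and 0.717 in KO libraries 1 to 4, against 2.39, 2.23, 2.32 and 2.22 in NTC libraries 1 to 4. EP300 transcripts thus stood below CREBBP transcripts in each KO library and above them in each NTC library. With the degrader the ratio was 1.74, 2.63, 1.67 and 1.68, against 1.85, 2.27, 1.85 and 1.85 in DMSO. Without degrader 2 all degrader ratios lay below all DMSO ratios, and degrader 2 lay above them all.

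The summed level of EP300 and CREBBP lay below NTC in the KO and above DMSO with the degrader. The sum was 6.76, 6.70, 6.09 and 6.53 CPM per kb in the KO and 10.52, 9.90, 9.61 and 10.2 CPM per kb in NTC. The sum thus lay lower in every KO library than in any NTC library, CREBBP's rise included. With the degrader it was 6.94, 16.7, 6.80 and 7.05 CPM per kb, against 4.90, 5.82, 5.91 and 5.66 CPM per kb in DMSO. These ratios and sums are descriptions of values tested above, with no test of their own.

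**Figure D3:**
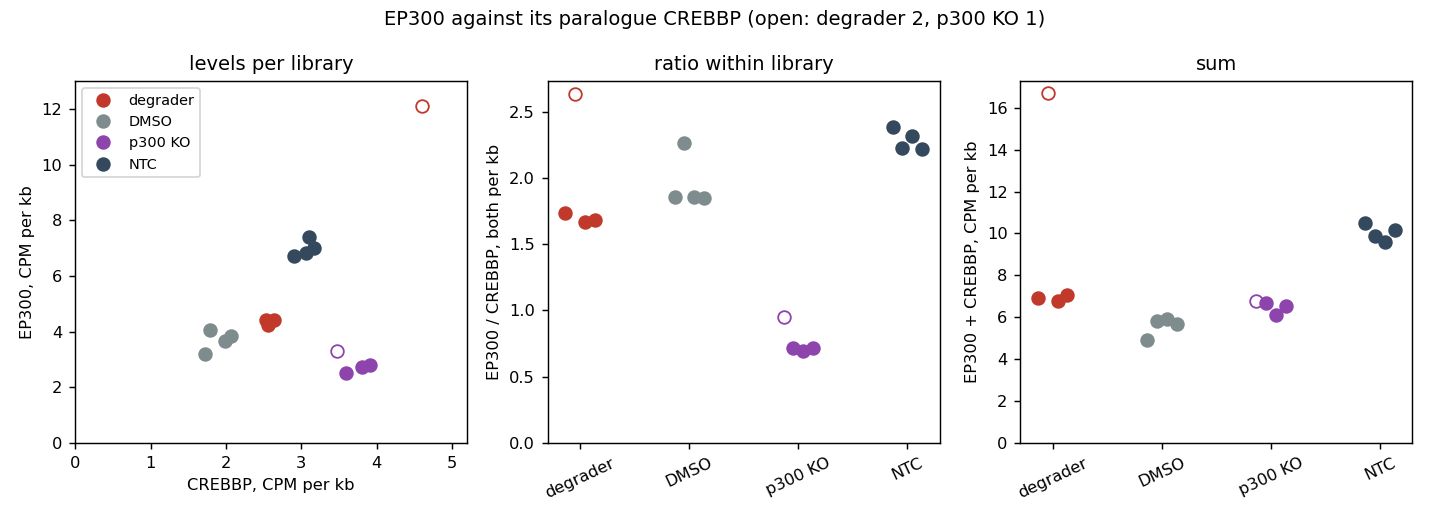
EP300 and CREBBP in each library: levels in CPM per kb of exon (left), their ratio (middle) and their sum in CPM per kb (right). Open points are degrader 2 and p300 KO 1; the KO ratios lie between 0.697 and 0.950 and the NTC ratios between 2.22 and 2.39.

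Across the 10 genes, the KO called 3 with all libraries: EP300 lower, and CREBBP and KAT7 higher. Over all 17350 genes tested, 17% were called (quasi-likelihood test of edgeR, Benjamini-Hochberg adjusted p under 0.05), 6.23% higher and 10.7% lower. Without KO 1, 8 of the 10 were called, 5 higher and 3 lower, beside 40.9% of 17706 genes. The median log2 fold change of the 10 was then 0.17, beside 0.00069 over all genes tested. Groups did not overlap in CPM for 7 of the 10 with all libraries and 8 of the 10 without KO 1, beside 27.6% and 41.5% of all genes. With the log2 mitochondrial share added to the fit without KO 1, 3 of the 10 were called, EP300, CREBBP and KAT6B, beside 22.1% of all genes. With that term in the fit of all 8 libraries, where it leans on KO 1, 8 of the 10 were called, beside 40.2% of all genes.

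The degrader called 0 of the 10 with all libraries, beside 4.76% of 15872 genes. At an unadjusted p under 0.05 edgeR passed 3 of the 10, beside 20.7% of all genes. By adjusted p, limma-voom called 0 of the 10, beside 6.35% of all genes, and DESeq2 called 1, CREBBP, beside 8.66%. Without degrader 2, 5 of the 10 were called, beside 38.5% of 16297 genes: CREBBP, KAT2A, KAT5 and HAT1 higher and KAT6B lower. The median log2 fold change of the 10 was then 0.11, beside −0.04 over all genes tested. Groups did not overlap for 3 of the 10 with all libraries and 8 of the 10 without degrader 2, beside 16.7% and 44.6% of all genes. With the log2 mitochondrial share in the fit without degrader 2, 0 of the 10 were called by edgeR, with adjusted p between 0.165 and 0.958, beside 3.24% of all genes. In the fit of all 8 libraries, where that term leans on degrader 2, it led to 6 calls, beside 36.6% of all genes.

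**Figure D4:**
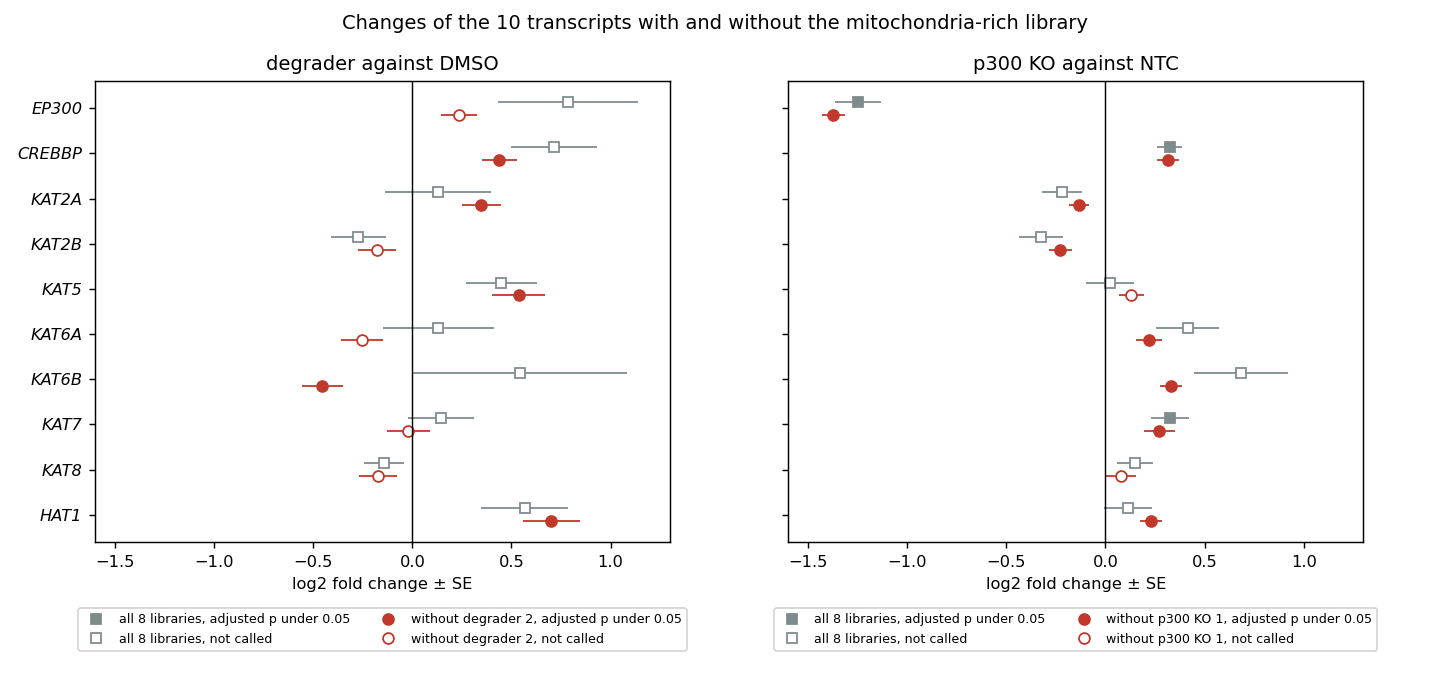
Log2 fold change ± SE of the 10 transcripts, degrader against DMSO (left) and p300 KO against NTC (right). Grey squares use all 8 libraries, red circles leave out degrader 2 or p300 KO 1, and filled symbols have an adjusted p under 0.05; KAT6B with the degrader is at 0.54 with all libraries and at −0.45 without degrader 2.

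KAT2A, the GCN5 catalytic subunit of SAGA and ATAC, was the most abundant of the 10 per kilobase in every group, and it rose with the degrader once degrader 2 was left out. KAT2A stood at 155, 62.3, 153 and 163 CPM with the degrader, against 138, 117, 105 and 131 CPM in DMSO. The 3 remaining degrader libraries lay above all DMSO libraries and degrader 2 below them all. This gave a log2 fold change of 0.13 ± 0.27 with all libraries (quasi-likelihood test of edgeR, Benjamini-Hochberg adjusted p = 0.827) and 0.35 ± 0.10 without degrader 2 (adjusted p = 0.0119). The mitochondrial share as a covariate ended that call (0.22 ± 0.26, adjusted p = 0.711). In the KO, KAT2A stood at 60.6, 90.6, 90.1 and 88.4 CPM, against 102, 92.4, 99.8 and 103 CPM in NTC. The KO libraries all lay below the NTC libraries, with a log2 fold change of −0.22 ± 0.10 (adjusted p = 0.151). Without KO 1 the fall was called at −0.13 ± 0.05 (adjusted p = 0.0346), but 6 of 7 further leave-outs lost that call (adjusted p up to 0.0954), as did 4 of 8 other settings, DESeq2 (adjusted p = 0.0584) and the mitochondrial share (adjusted p = 0.403) among them. Without both libraries the KO and degrader effects on KAT2A differed by −0.51 ± 0.11 (edgeR over 14 libraries, adjusted p = 0.00157), a call lost with the mitochondrial share (−0.29 ± 0.24, adjusted p = 0.547).

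KAT2B, which encodes PCAF, fell in the KO without KO 1 and was not called with the degrader. KAT2B stood at 23.5, 36.3, 35.1 and 38.7 CPM in the KO and at 46.1, 42.5, 40.4 and 44.4 CPM in NTC, with no overlap. The fitted log2 change was −0.33 ± 0.11 (quasi-likelihood test of edgeR, Benjamini-Hochberg adjusted p = 0.0767), and −0.23 ± 0.06 without KO 1 (adjusted p = 0.00204). That fall was called in all 7 further leave-outs but not with the mitochondrial share as a covariate (−0.16 ± 0.09, adjusted p = 0.212). With the degrader it stood at 17.1, 11.1, 15.5 and 17.54 CPM, against 18.9, 19.4, 17.8 and 19.2 CPM in DMSO, all degrader values being lower. On the log2 scale the change was −0.27 ± 0.14 (edgeR, adjusted p = 0.311), and −0.18 ± 0.09 without degrader 2 (adjusted p = 0.149). The 2 experiments ran at different KAT2B levels: NTC exceeded DMSO by 1.20 ± 0.08 on the log2 scale (edgeR, adjusted p = 5.67e-10). Per kilobase, KAT2A exceeded KAT2B by 14.1-fold with the degrader and 9.74-fold in DMSO, and by 3.66-fold in the KO and 3.42-fold in NTC. These are means without degrader 2 and KO 1.

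Among the MYST genes, KAT6A and KAT6B rose in the KO and KAT6B fell with the degrader when the mitochondria-rich libraries were left out. KAT6B stood at 108, 58.0, 52.2 and 59.6 CPM in the KO and at 47.2, 43.3, 45.9 and 45.3 CPM in NTC. Every KO library was above every NTC library and KO 1 was the highest. The fit gave a log2 fold change of 0.68 ± 0.24 (quasi-likelihood test of edgeR, Benjamini-Hochberg adjusted p = 0.0785), and 0.33 ± 0.06 without KO 1 (adjusted p = 6.19e-06), called in all 7 further leave-outs and with the mitochondrial share (adjusted p = 0.00500). With the degrader KAT6B stood at 33.0, 166, 32.4 and 36.7 CPM, against 42.3, 41.8, 54.3 and 47.5 CPM in DMSO. Degrader 2 lay above all DMSO libraries and the other 3 below them all, so the direction rests on that library. It had a log2 fold change of 0.54 ± 0.54 with it (edgeR, adjusted p = 0.616) and −0.45 ± 0.10 without it (adjusted p = 0.00358). Adding the mitochondrial share to that fit ended the call and turned the sign (0.07 ± 0.25, adjusted p = 0.917). Without both libraries the KO and degrader effects on KAT6B differed by 0.76 ± 0.12 (edgeR, adjusted p = 3.08e-05), and with all libraries by 0.11 ± 0.60 (adjusted p = 0.955). The call without both libraries was lost with the share (0.29 ± 0.24, adjusted p = 0.540).

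KAT6A, a fusion partner in some acute myeloid leukaemias, showed smaller shifts. It stood at 54.1, 36.02, 34.7 and 42.8 CPM in the KO and at 33.9, 32.5, 33.9 and 31.0 CPM in NTC, without overlap. Its log2 fold change was 0.41 ± 0.16 (quasi-likelihood test of edgeR, Benjamini-Hochberg adjusted p = 0.103) and 0.22 ± 0.06 without KO 1 (adjusted p = 0.00570), a call that was lost when KO 4 was left out as well (0.12, adjusted p = 0.146) and with the mitochondrial share as a covariate (0.11 ± 0.10, adjusted p = 0.454). With the degrader it stood at 31.2, 69.9, 32.8 and 32.4 CPM, against 36.3, 36.3, 46.2 and 33.8 CPM in DMSO. Degrader 2 was above the DMSO range and the other 3 degrader libraries were below it. This gave a log2 fold change of 0.13 ± 0.28 with degrader 2 (edgeR, adjusted p = 0.837) and −0.25 ± 0.11 without it (adjusted p = 0.0711). The KO and degrader effects differed by 0.44 ± 0.13 without both libraries (edgeR, adjusted p = 0.00915). With the share in that fit the call was lost and the sign turned (−0.19 ± 0.25, adjusted p = 0.722).

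KAT5, the catalytic subunit of NuA4, rose with the degrader without degrader 2 and was not called in the KO. KAT5 stood at 30.8, 20.8, 30.8 and 28.6 CPM with the degrader, against 20.4, 25.3, 14.9 and 21.8 CPM in DMSO. Degrader 2 lay inside the DMSO range and the other 3 lay above it. The fitted log2 change was 0.45 ± 0.18 (quasi-likelihood test of edgeR, Benjamini-Hochberg adjusted p = 0.197), and 0.54 ± 0.13 without degrader 2 (adjusted p = 0.00629). In DMSO, KAT5 was lowest in DMSO 3, where the mitochondrial share was 23.5%, and highest in DMSO 2, where it was 13.4%. With the log2 mitochondrial share in that fit the value was −0.62 ± 0.27 (edgeR, adjusted p = 0.221). In the KO KAT5 stood at 19.1, 31.3, 31.7 and 29.1 CPM, against 28.4, 28.9, 25.9 and 30.2 CPM in NTC, and the groups overlapped. On the log2 scale the change was 0.02 ± 0.12 (edgeR, adjusted p = 0.911), and 0.13 ± 0.06 without KO 1 (adjusted p = 0.100).

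The exons of KAT5 share 1115 bases, 29.9% of its exon length, with RNASEH2C on the opposite strand, and the use of strand in counting is not stated. How far this alters the KAT5 counts is not known, since a share of exon length is not a share of counts. RNASEH2C levels ran from 53.1 CPM in KO 1 to 115 CPM in degrader 4, above KAT5 in every library. RNASEH2C, a subunit of ribonuclease H2, had a log2 fold change with the degrader of 0.08 ± 0.16 with all libraries (quasi-likelihood test of edgeR, Benjamini-Hochberg adjusted p = 0.821) and 0.19 ± 0.09 without degrader 2 (adjusted p = 0.104). In the KO it had −0.0023 ± 0.07 with all libraries (edgeR, adjusted p = 0.986) and 0.03 ± 0.06 without KO 1 (adjusted p = 0.731). For the other members, shared exon bases with genes above 1 CPM occurred only between KAT7 and FAM117A, at 2.51% of the exon length of KAT7. With the degrader FAM117A had −0.49 ± 0.12 (edgeR, adjusted p = 0.0488), and −0.45 ± 0.10 without degrader 2 (adjusted p = 0.00392). In the KO it had −0.02 ± 0.08 (edgeR, adjusted p = 0.882). KAT2A shares 405 bases, 10.7% of its exon length, with a same-strand gene that had at most 2 counts in any library. The treatment of reads on both genes is not given. EP300 shares 107 bases, 0.856% of its exon length, with an antisense gene that had at most 11 counts in any library.

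KAT7, which encodes HBO1, was called higher in the KO and showed no called change with the degrader. It stood at 19.6, 17.4, 19.8 and 19.0 CPM in the KO and at 16.6, 17.3, 14.7 and 14.2 CPM in NTC. The lowest KO value exceeded the highest NTC value by a small margin. The fit gave a log2 fold change of 0.33 ± 0.10 (quasi-likelihood test of edgeR, Benjamini-Hochberg adjusted p = 0.0475), a call that 6 of 8 leave-outs lost (adjusted p up to 0.138). Without KO 1 it was 0.27 ± 0.08 (adjusted p = 0.00482), called in all 7 further leave-outs but not with the mitochondrial share as a covariate (0.30 ± 0.12, adjusted p = 0.0841). With the degrader KAT7 stood at 15.1, 21.5, 15.6 and 13.3 CPM, against 14.2, 14.6, 16.8 and 13.7 CPM in DMSO. The groups overlapped, and the log2 fold change was 0.14 ± 0.17 (edgeR, adjusted p = 0.673), or −0.02 ± 0.11 without degrader 2 (adjusted p = 0.900).

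KAT8, the acetyltransferase of the MSL and NSL complexes, was not called in either experiment. It stood at 18.8, 20.2, 20.1 and 19.3 CPM with the degrader and at 23.0, 21.3, 23.1 and 19.7 CPM in DMSO. In the KO it stood at 18.0, 17.5, 16.1 and 15.5 CPM, against 15.4, 14.9, 15.9 and 16.5 CPM in NTC. The groups overlapped in both experiments. With the degrader the log2 fold change was −0.14 ± 0.10 (quasi-likelihood test of edgeR, Benjamini-Hochberg adjusted p = 0.475), and −0.17 ± 0.09 without degrader 2 (adjusted p = 0.158). In the KO it was 0.15 ± 0.09 (edgeR, adjusted p = 0.275), and 0.08 ± 0.08 without KO 1 (adjusted p = 0.449).

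HAT1 rose in both experiments when the mitochondria-rich libraries were left out. HAT1 stood at 61.0, 33.9, 59.7 and 53.7 CPM with the degrader, against 35.8, 44.1, 24.4 and 37.9 CPM in DMSO. The 3 libraries other than degrader 2 lay above all DMSO libraries. It had a log2 fold change of 0.57 ± 0.22 (quasi-likelihood test of edgeR, Benjamini-Hochberg adjusted p = 0.187), and 0.70 ± 0.14 without degrader 2 (adjusted p = 0.00183), the largest increase of the 10 in that fit. Like KAT5, HAT1 was lowest in DMSO 3 and highest in DMSO 2, and with the log2 mitochondrial share in the fit it had −0.61 ± 0.26 (edgeR, adjusted p = 0.210).

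In the KO HAT1 stood at 33.9, 55.5, 55.6 and 57.5 CPM, against 49.6, 45.2, 49.2 and 49.4 CPM in NTC. KO 1 lay below all NTC libraries and the other 3 above them all. Its log2 fold change was 0.11 ± 0.12 (quasi-likelihood test of edgeR, Benjamini-Hochberg adjusted p = 0.544) and 0.23 ± 0.05 without KO 1 (adjusted p = 6.87e-04). The mitochondrial share in the fit without KO 1 ended the call (0.22 ± 0.08, adjusted p = 0.0565). Without both libraries, the KO effect minus the degrader effect was −0.49 ± 0.16 on the log2 scale (edgeR, adjusted p = 0.0215). With the log2 mitochondrial share added there, the difference was 0.88 ± 0.25 (adjusted p = 0.0295) and so changed its sign, as did that of KAT5 (0.89 ± 0.26, adjusted p = 0.0330).

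In that difference without degrader 2 and KO 1, 6 of the 10 were called, beside 32% of 18432 genes, 15.3% higher and 16.7% lower. EP300, KAT2A, KAT5 and HAT1 had the lower value in the KO effect, and KAT6A and KAT6B the higher. The values without both libraries that were not called were those of CREBBP, KAT2B, KAT7 and KAT8, between −0.15 and 0.26. KAT5 kept its call in 7 of 14 further leave-outs (adjusted p up to 0.0962), and the other 5 called genes kept theirs in all 14. With the mitochondrial share in that fit 3 of the 10 were called, EP300, KAT5 and HAT1, beside 6.93% of all genes; KAT5 and HAT1 had the opposite sign there, and KAT2A, KAT6A and KAT6B lost their calls. With all 16 libraries and no such term, the 5 called genes other than EP300 lay between −0.49 and 0.25 (edgeR, adjusted p between 0.309 and 0.955).

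The control groups themselves differed in most of these genes. NTC against DMSO called 8 of the 10, beside 68.9% of 17248 genes, 35.3% higher and 33.5% lower. Groups did not overlap for 7 of the 10, beside 62% of all genes. In this comparison culture, handling and time cannot be told apart from the control reagent. EP300 was higher in NTC by 0.92 ± 0.08, CREBBP by 0.69 ± 0.08, KAT5 by 0.45 ± 0.12 and HAT1 by 0.44 ± 0.12 on the log2 scale (quasi-likelihood test of edgeR, Benjamini-Hochberg adjusted p at most 0.00440), beside KAT2B above. KAT2A was lower in NTC at −0.31 ± 0.08 (adjusted p = 0.00361), KAT6A at −0.22 ± 0.09 (adjusted p = 0.0404) and KAT8 at −0.48 ± 0.08 (adjusted p = 7.04e-05). KAT6B and KAT7 were not called. With the log2 mitochondrial share in this fit 4 of the 10 were called, EP300, CREBBP, KAT2A and KAT2B, in the same directions, beside 37.4% of all genes. The share was 8.91 to 10.3% in NTC and 13.4 to 23.5% in DMSO, without overlap, so it and the group cannot be told apart. Levels set across the 2 experiments carry the difference between the control groups.

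Without degrader 2 and KO 1, the order of EP300 levels was NTC, degrader, DMSO and KO from high to low, and no neighbours overlapped. The order of CREBBP was KO, NTC, degrader and DMSO, again without overlap. Per kilobase of exon, KAT2A came first in every group, at 41.6 ± 1.496 CPM per kb with the degrader (n = 3), 32.6 ± 3.84 in DMSO (n = 4), 23.8 ± 0.305 in the KO (n = 3) and 26.3 ± 1.24 in NTC (n = 4; all SD). KAT7 came last in every group, between 1.25 and 1.60 CPM per kb. EP300 had rank 5 of the 10 in the degrader, DMSO and NTC groups and rank 9 in the KO, where CREBBP, at 3.77 ± 0.164 CPM per kb, stood above it, at 2.67 ± 0.155 CPM per kb (SD, n = 3).

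Genes whose profile over 14 libraries lay nearest to that of EP300 or CREBBP were ranked among 9057 genes by the root mean square difference of mean-centred log2 CPM. CREBBP had close neighbours. SERINC3, a membrane protein, differed from it by 0.087 and HDAC5, a class II histone deacetylase, by 0.098, followed by MICALL1, C6orf89 and WDR7 at up to 0.11. HDAC5 averaged 76.4 CPM with the degrader, 58.3 CPM in DMSO, 121 CPM in the KO and 99.8 CPM in NTC. EP300 had no neighbour as near: ZDHHC14, a palmitoyltransferase, came first at 0.18, then LINC00957, BMP6, MILIP and MAN1B1-DT at 0.24 to 0.27. ZDHHC14 averaged 20.7 CPM with the degrader, 20.4 CPM in DMSO, 15.7 CPM in the KO and 32.1 CPM in NTC. CREBBP itself ranked 5557 from EP300, at 0.63, and of the other 9 members KAT5 came nearest to CREBBP, ranked 1408 at 0.27.

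The acetyltransferases act with partner subunits, which were followed in 8 lists holding 96 genes, chosen with earlier results of these data known. In the KO with all libraries, 13 of 95 tested partner genes (13.7%) were higher and 5 (5.26%) lower, beside 6.23% and 10.7% of all genes. Without KO 1 these were 36 (37.9%) and 9 (9.47%), beside 19.1% and 21.8%. Their median log2 fold change was 0.09 there, beside 0.00069 over all genes tested. Genes higher in the KO included BRD8, the bromodomain subunit of NuA4, at 70.3, 104, 98.8 and 97.9 CPM in the KO and 69.4, 70.0, 65.2 and 72.0 CPM in NTC (0.47 ± 0.09, quasi-likelihood test of edgeR, Benjamini-Hochberg adjusted p = 0.00872). MAML1, a Notch coactivator that binds p300, had 0.36 ± 0.07 (adjusted p = 0.00871), and CRTC1, a coactivator of CREB, had 0.52 ± 0.11 (adjusted p = 0.0135). Of the 12 p300 and CBP partners tested, 4 were higher and 0 lower, and without KO 1 these were 6 and 1. The lower one was CITED2, which competes with other factors for a p300 domain, at 36.5, 91.3, 96.8 and 99.2 CPM in the KO and 152, 141, 129 and 138 CPM in NTC (−0.53 ± 0.05 without KO 1, edgeR, adjusted p = 4.32e-11). With all libraries CITED2 was not called (−0.75, adjusted p = 0.0548).

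Over all genes, 6.23% were higher and 10.7% lower in the KO with all libraries, and 19.1% and 21.8% without KO 1, which are the shares to set beside each list. Of 17 NuA4 subunits tested in the KO, 5 rose and 1 fell with all libraries (29.4% and 5.88%), and 8 and 1 without KO 1. The one that fell was RUVBL1, an ATPase shared with other remodelling complexes, at 39.2, 51.7, 54.4 and 52.2 CPM in the KO and 71.5, 70.7, 69.3 and 72.2 CPM in NTC (−0.47 ± 0.08, quasi-likelihood test of edgeR, Benjamini-Hochberg adjusted p = 0.00385). Among 24 SAGA and ATAC subunits 1 rose with all libraries (4.17%), SGF29, a reader of methylated histone (0.70 ± 0.21, adjusted p = 0.0459, and 0.42 without KO 1). Without KO 1 these subunits held 6 higher and 2 lower. Among 9 subunits of the MOZ, MORF and HBO1 complexes 1 rose with all libraries (11.1%), MEAF6 (0.25 ± 0.07, adjusted p = 0.0383), and 5 rose and 1 fell without KO 1. Among 11 MSL and NSL subunits 0 rose and 2 fell with all libraries (18.2%), HCFC1 (−0.25 ± 0.07, adjusted p = 0.0362) and MSL3 (−0.24 ± 0.07, adjusted p = 0.0452), and without KO 1 3 were higher and 2 lower. Of the 5 HAT1 partners and chaperones none was called with all libraries and 1 rose without KO 1, the histone chaperone ASF1B (0.20 ± 0.05, edgeR, adjusted p = 0.00155).

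Among 14 other acetyltransferases 2 rose and 1 fell in the KO with all libraries (14.3% and 7.14%, beside 6.23% and 10.7% of all genes), and 5 rose and 1 fell without KO 1, beside 19.1% and 21.8%. ESCO2, which acetylates cohesin, stood at 15.2, 16.2, 18.3 and 17.6 CPM in the KO and at 9.87, 11.3, 11.7 and 12.05 CPM in NTC (0.64 ± 0.08, quasi-likelihood test of edgeR, Benjamini-Hochberg adjusted p = 0.00151). NAA40, which acetylates histone N termini, rose by 0.29 ± 0.07 (adjusted p = 0.0184), and NAT10, an RNA acetyltransferase, fell at −0.22 ± 0.06 (adjusted p = 0.0453). The acetyl-CoA genes held 1 of 8 in each direction with all libraries, a pair of acetyl-CoA synthetases, and 4 higher and 1 lower without KO 1. ACSS2, the nuclear and cytosolic enzyme, stood at 11.9, 15.8, 12.6 and 15.02 CPM in the KO and 11.9, 8.94, 11.4 and 8.96 CPM in NTC (0.48 ± 0.12, adjusted p = 0.0283). ACSS1, the mitochondrial enzyme, stood at 13.8, 19.5, 19.8 and 18.1 CPM in the KO and 28.2, 24.9, 24.2 and 25.7 CPM in NTC (−0.48 ± 0.09, adjusted p = 0.00862).

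With the degrader and all libraries, 3 of 93 partner genes (3.23%) were higher and 0 lower, beside 1.64% and 3.12% of all genes. They were ING3 and DMAP1 of NuA4 and BRPF3, a scaffold of MOZ, MORF and HBO1 complexes. ING3 stood at 22.6, 17.8, 24.2 and 21.0 CPM with the degrader, against 11.6, 15.6, 13.95 and 15.1 CPM in DMSO (0.62 ± 0.14, quasi-likelihood test of edgeR, Benjamini-Hochberg adjusted p = 0.0354). The groups did not overlap, degrader 2 included. DMAP1 had 0.57 ± 0.13 (adjusted p = 0.0394) and BRPF3 0.76 ± 0.18 (adjusted p = 0.0470). Without degrader 2 the counts were 23 higher (24.7%) and 16 lower (17.2%), beside 18.2% and 20.3% of all genes.

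In the fit without degrader 2, 18.2% of all genes were higher and 20.3% lower. NuA4 held 8 higher and 3 lower of 17 there, and the MOZ, MORF and HBO1 subunits 4 higher and 0 lower of 9. TRRAP, the large scaffold shared by SAGA and NuA4, stood at 80.4, 129, 78.7 and 83.1 CPM with the degrader and 118, 127, 130 and 119 CPM in DMSO. Degrader 2 lay inside the DMSO range and the other 3 below it (−0.62 ± 0.08, quasi-likelihood test of edgeR without degrader 2, Benjamini-Hochberg adjusted p = 7.27e-05), and with all libraries it was not called (−0.40, adjusted p = 0.259). BRD8 stood at 110, 49.5, 115 and 118 CPM with the degrader and 82.6, 68.4, 63.1 and 74.5 CPM in DMSO (0.66 ± 0.10 without degrader 2, adjusted p = 1.65e-04), and was not called with all libraries (0.45, adjusted p = 0.340). The p300 and CBP partners held 0 higher and 3 lower of 10 tested, beside 18.2% and 20.3% of all genes. The lower ones were NCOA3 and NCOA2, coactivators of nuclear receptors, and CRTC2. With the log2 mitochondrial share added to the fit without degrader 2, 3.24% of all genes were called. Values of the partner genes with that term are not given here. That share and the treatment cannot be told apart there.

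**Figure D5:**
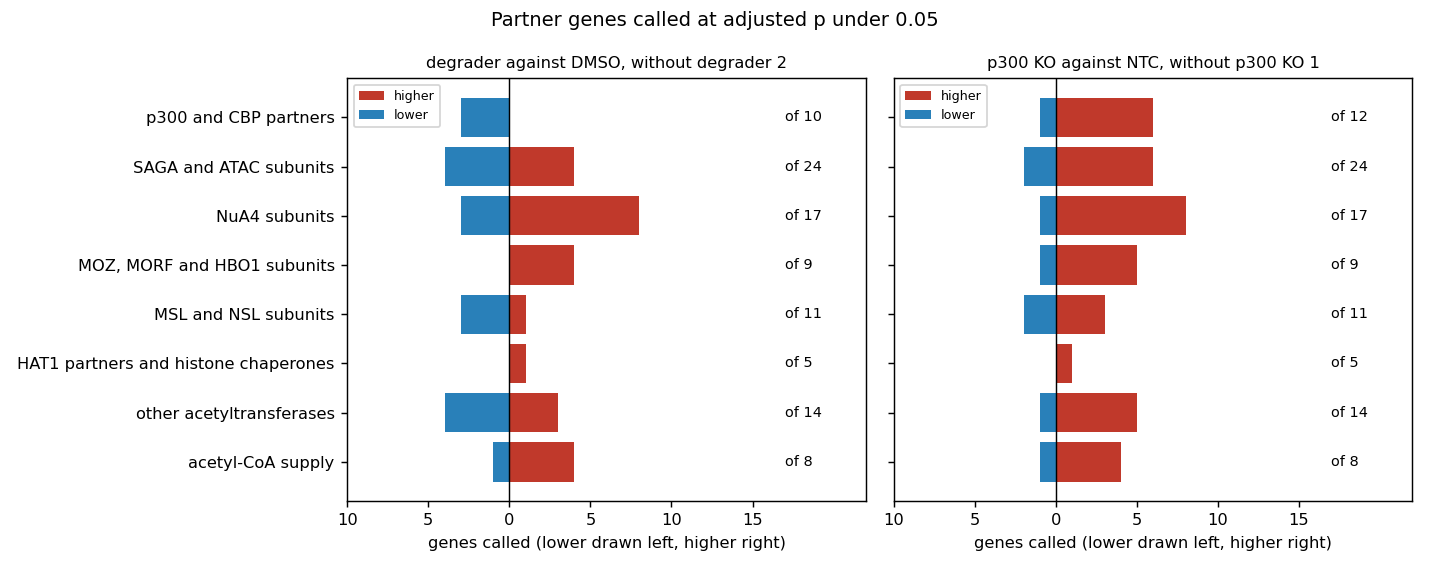
Number of partner genes with an adjusted p under 0.05 in each of 8 lists, higher drawn right in red and lower drawn left in blue, for degrader against DMSO without degrader 2 and p300 KO against NTC without p300 KO 1. Numbers at the right of each panel give the genes tested per list. The p300 and CBP partners show 3 lower of 10 with the degrader, and 6 higher and 1 lower of 12 in the KO. Over all genes, 18.2% were higher and 20.3% lower with the degrader, and 19.1% and 21.8% in the KO.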

How the data were processed

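Bulk RNA was sequenced from 16 libraries of NCI-H929 cells, 4 per group. The authors deposited raw read counts per gene, with gene coordinates and summed exon length in base pairs, per the file headers. Per the submitters' processing notes, the tools were Trimmomatic 0.36, STAR 2.5.2b, featureCounts from Subread 1.5.2 and DESeq2 1.16.1, with build GRCh38. The strand setting, the treatment of reads with several matches and the annotation release are not given in the sources used, so overlapping genes and paralogues may share reads. The authors' deposited gene length in base pairs was used only to scale levels per kb.

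Counts were scaled by TMM, filtered with filterByExpr at its defaults and tested with edgeR 4.0.16 (quasi-likelihood test, R 4.3.3). Adjustment was Benjamini-Hochberg over all genes tested, and called means an adjusted p under 0.05. The SE of a log2 fold change is its size over the root of F. Each experiment was fitted on its own 8 libraries, and the difference between them on all 16. The tests were checked on simulated data in which no library stood apart from its group. That check therefore does not cover fits that hold degrader 2 or p300 KO 1. Levels are CPM scaled by TMM over all 16 libraries. Before that scaling, a count of 3 corresponds to 0.130 to 0.238 CPM. In degrader 2, with a TMM factor of 0.429, it corresponds to more on the scale of the levels. Tables and figures were made with Python 3.11.15, pandas 2.3.3, numpy 2.4.6 and matplotlib 3.10.9. Alternatives were other scalings, removal of mitochondrial genes, no filter, DESeq2 1.42.0, limma-voom (limma 3.58.1), a replicate block, the log2 mitochondrial share as a covariate and leaving out each library. Fits that combine a left-out mitochondria-rich library with a further alternative were added after seeing the data.

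The members and lists were chosen with earlier results of these data known. All 10 members are named. Of each partner list, the text names genes from the 3 with the smallest adjusted p among those called in a comparison. Nearest profiles are the 5 nearest genes with an average log2 CPM of at least 3. No 2 libraries held the same values.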

Additional observations from a re-analysis of the deposited data

Results flagged for a closer look

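Of 40 groups of 4 libraries examined, for 10 genes in 4 groups, 9 held a library whose gap to its nearest mate, divided by the range of the group, exceeded Dixon's critical value for 4 samples. Chance alone gives about 1 such group in 20. Of the 9, 5 were in degrader 2 and 3 in p300 KO 1, the libraries with the highest mitochondrial share.

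In degrader 2, EP300 stood at 151 CPM, CREBBP at 71.2 CPM, KAT6A at 69.9 CPM and KAT6B at 166 CPM, each above the other 3 degrader libraries. KAT2A stood at 62.3 CPM there, below its mates. In p300 KO 1, KAT6B stood at 108 CPM, above its mates, and KAT2A at 60.6 CPM and HAT1 at 33.9 CPM, below theirs. The mitochondrial share was 64.9% in degrader 2 and 47.7% in p300 KO 1, and its part in these values was not tested. The remaining one was HAT1 in NTC 2, at 45.2 CPM, below the other NTC libraries.

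The response of EP300 differed between the experiments. The KO effect minus the degrader effect was −2.07 on the log2 scale (quasi-likelihood test of edgeR over 16 libraries, Benjamini-Hochberg adjusted p = 0.00361), and −1.64 without degrader 2 and KO 1. EP300, the gene targeted in the KO, was lower in 4 of 4 KO libraries than in any NTC library. It was higher in 4 of 4 degrader libraries than in any DMSO library, but that change was not called (edgeR, adjusted p = 0.249, and 0.0531 without degrader 2). Groups did not overlap for 27.6% of all genes in the KO and 16.7% with the degrader.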

How the results depend on the processing

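Among log2 fold changes of single genes under the alternatives chosen at the start, 645 kept their direction and side of the threshold, 33 gained a call, 21 lost one and 31 changed sign; among those added after seeing the data these were 468, 9, 26 and 17. The cause was not tested except where an alternative's own construction shows it. With the degrader, 755 genes were called, against 164 with total count scaling, 394 with no filter, 1573 with DESeq2, 24 with the replicate block and 5807 with the mitochondrial share. For the KO, 2944 became 1265 with total counts, 1304 with the block and 6983 with the share. For the difference, 1189 became 319 with total counts, 585 with no filter, 1947 with DESeq2, 715 with the block, 4948 with the share and 5901 without both mitochondria-rich libraries. For NTC against DMSO, 11877 became 6448 with the share. Of the 10 members, the degrader called 0, against 1 with DESeq2 and 6 with the share. The KO called 3, against 1 with total counts and 8 with the share. The difference called 1, against 3 with the share and 6 without both libraries, and NTC against DMSO called 8, against 4 with the share. Leaving out 1 library gave 197 to 6278 genes and 0 to 5 members for the degrader, 1542 to 7246 genes and 2 to 8 members for the KO, 766 to 4611 genes and 1 to 4 members for the difference, and 11274 to 12398 genes and 7 to 8 members for NTC against DMSO. The highest values for the degrader and KO came without degrader 2 and without p300 KO 1.

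Total count scaling moved the median of all genes by −0.14 for the degrader, −0.16 for the KO and 0.25 for NTC against DMSO. The share of calls that were higher was then 11.6% for the degrader, against 34.4% with TMM, 4.82% for the KO, against 36.7%, and 68.6% for NTC against DMSO, against 51.3%.

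Signs changed as follows, in log2 fold change. With total counts, the degrader gave KAT6A −0.18, KAT6B −0.022 and KAT7 −0.058, the KO gave KAT5 −0.11, KAT8 −0.037 and HAT1 −0.016, and NTC against DMSO gave KAT6A 0.032 and KAT6B 0.22. With no filter, the KO gave KAT5 −0.0042 and NTC against DMSO KAT6B 0.010. With the mitochondrial share, the degrader gave KAT2A −0.19. The difference then gave KAT2A 0.13, KAT2B 0.26, KAT6A −0.11 and KAT6B −0.37, and NTC against DMSO gave KAT5 −0.23, KAT6A 0.14, KAT6B 0.24 and HAT1 −0.29. Leaving out 1 library gave, for the degrader, KAT6A −0.25 to 0.25, KAT6B −0.45 to 0.77 and KAT7 −0.020 to 0.24, each lowest without degrader 2. It gave KAT5 −0.030 to 0.13 in the KO, where the sign changed without NTC 3, KO 2 or KO 3. In the difference it gave KAT2B −0.21 to 0.038, reversed without KO 1, and KAT6B −0.17 to 1.04, reversed without KO 1 or degrader 1, 3 or 4. In NTC against DMSO it gave KAT6B −0.084 to 0.038, reversed without DMSO 3.

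With degrader 2 already left out, KAT7 was 0.0017 with DESeq2 size factors, 0.094 with total counts, 0.021 with no filter, 0.038 with DESeq2 and −0.061 to 0.064 with 1 more library left out, reversed without DMSO 3 or degrader 4. With the share there, KAT5 was −0.62, KAT6A 0.36, KAT6B 0.074, KAT7 0.24, KAT8 0.15 and HAT1 −0.61. In the difference without both libraries, the share gave KAT2B 0.22, KAT5 0.89, KAT6A −0.19, KAT8 −0.0015 and HAT1 0.88. Levels with mitochondrial genes removed were 1.23 to 1.25 times as high.

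Deviations from the group mean in samples with the same replicate number had correlations of −0.35 to 0.08 for degrader and DMSO, and −0.17 to 0.03 for KO and NTC. The group means include degrader 2 and p300 KO 1, which stand far from their mates. This check therefore cannot decide whether the numbers pair the samples, and the block only shows the counts above. Of the 12 pairs examined, 1 sample correlated best with its own number. Depth outside mitochondrial genes was 4.42 M counts in degrader 2 and 8.66 M in p300 KO 1, which limits both.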
